A study of Mus musculus with 19 samples.

Results

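Hmgcs1, Fdft1, Sqle, Cyp51, Dhcr7, Srebf2 and Insig1, 7 genes of cholesterol synthesis and its control, were followed in ipsilaterally projecting retinal ganglion cells (iRGCs) and contralaterally projecting retinal ganglion cells (cRGCs) of the mouse embryo. The 7 genes were taken by symbol, by matching the Ensembl identifiers of the count tables to the GRCm38 annotation, and all 7 were found among the 47069 genes listed. Although the group was put together as genes of synthesis and uptake, none of the 7 encodes a lipoprotein receptor, and receptors were therefore read from a separate list. Cells were sorted for GFP from retinas at E16.5, when retinal axons reach the optic chiasm, and polyA RNA of each population was sequenced as 3 libraries. The iRGC libraries came from Slc6a4-Cre; Sun1-GFP embryos, in which Cre driven from the serotonin transporter gene (Slc6a4, also Sert) switches on a GFP-tagged protein of the nuclear envelope. The cRGC libraries came from Pou4f2-Cre; Sun1-GFP embryos, in which Cre sits in the locus of Pou4f2 (also Brn3b), a transcription factor made by most RGCs, and the ventrotemporal part of the retina, where iRGCs lie, was cut away before sorting. Both populations thus carried a Cre driver and the Sun1-GFP allele, and they differed in driver and in retinal region as well as in projection. By the paper's account iRGCs are born later, so that at E16.5 they are also younger on average than cRGCs. Driver, region, projection and age of the cells cannot be told apart. Nothing in the labels tells whether the libraries came from separate litters, so p-values measure the spread between these 6 libraries. Each library had from 28193178 to 33638083 counts on genes, and the counts behind a single value of the 7 genes ran from 1882 to 62860.

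Cells make cholesterol from acetyl-CoA through the mevalonate pathway, in which squalene is formed from isoprenoid units and then closed and trimmed into sterols. The genes of nearly every step are switched on by SREBP-2, a transcription factor held in the endoplasmic reticulum by Scap and Insig proteins while sterols are plentiful and released by proteolysis in the Golgi when they run short. Growing axons need cholesterol for new membrane, and in the developing brain neurons make part of it themselves before glia take over most of the supply.

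Among the 7 genes, Hmgcs1 (HMG-CoA synthase, an early enzyme of the pathway) lies on chromosome 13 at 119690379 to 119708260, plus strand (ENSMUSG00000093930). Fdft1 (squalene synthase, the first step committed to sterols) lies on chromosome 14 at 63145150 to 63179578, minus strand (ENSMUSG00000021273). Sqle (squalene epoxidase, a control point of the pathway) lies on chromosome 15 at 59315077 to 59331192, plus strand (ENSMUSG00000022351). Cyp51 (lanosterol demethylase) lies on chromosome 5 at 4081145 to 4104746, minus strand (ENSMUSG00000001467), and Dhcr7 (the reductase that turns 7-dehydrocholesterol into cholesterol) on chromosome 7 at 143823145 to 143848410, plus strand (ENSMUSG00000058454). Srebf2, which encodes SREBP-2, lies on chromosome 15 at 82147181 to 82205379, plus strand (ENSMUSG00000022463), and Insig1, a sterol-dependent brake on SREBP processing that is itself an SREBP target, on chromosome 5 at 28071363 to 28078662, plus strand (ENSMUSG00000045294). All positions are those of GRCm38, and all 7 genes are protein coding. Of the exonic bases, 18.3% of Fdft1 are shared with Ctsb, 12.1% of Hmgcs1 with Gm48342 and 3.76% of Cyp51 with Akap9, so reads there could have been counted for either gene or for none.

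Upstream sequences of 3 of the genes are shown because Hmgcs1 was the most abundant gene of the group, Srebf2 encodes the common activator and Insig1 was the 1 gene that did not follow the others. They are from the RefSeq promoters of GRCm38.p6, plus strand, read 5′ to 3′, and cover chr13:119690101-119690350 (Hmgcs1), chr15:82147019-82147180 (Srebf2) and chr5:28071162-28071362 (Insig1), where the last and the one before it stop at the annotated start of transcription. Capitals mark matches on either strand to CACNCCAC (core of the sterol regulatory element bound by SREBPs), CCAAT (bound by NF-Y; ATTGG on the opposite strand) and GGGCGG (bound by Sp1; CCGCCC on the opposite strand).
Hmgcs1: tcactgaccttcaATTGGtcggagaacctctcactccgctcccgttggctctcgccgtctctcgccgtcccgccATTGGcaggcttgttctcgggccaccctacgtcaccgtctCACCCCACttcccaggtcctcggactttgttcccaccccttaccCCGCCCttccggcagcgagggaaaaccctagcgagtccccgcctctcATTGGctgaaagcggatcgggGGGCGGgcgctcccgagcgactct
Srebf2: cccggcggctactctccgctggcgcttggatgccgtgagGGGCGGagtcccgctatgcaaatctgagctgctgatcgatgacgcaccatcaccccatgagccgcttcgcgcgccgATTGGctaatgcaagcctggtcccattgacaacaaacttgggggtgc
Insig1: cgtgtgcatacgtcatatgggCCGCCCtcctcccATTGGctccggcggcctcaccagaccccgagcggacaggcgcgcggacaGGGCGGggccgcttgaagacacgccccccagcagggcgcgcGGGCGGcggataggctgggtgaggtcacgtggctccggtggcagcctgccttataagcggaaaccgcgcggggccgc

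RefSeq promoters were matched for 5 of the 7 genes, Hmgcs1, Insig1, Dhcr7, Cyp51 and Srebf2, with 7 promoters in all because Dhcr7 had 3. In the 250 bases before the RefSeq start, CCAAT occurred in 5 of these 7 promoters, at least once in each of the 5 genes, against 33.9% of all 32851 promoters. Some of these windows reach past the start that GENCODE gives, and the CCAAT matches of Cyp51 and Dhcr7 lay within the bounds of the gene as given above. GGGCGG was found in 6 of the 7, against 32.7% of all. CACNCCAC was found in 2 of the 7, those of Hmgcs1 and Insig1, against 5.29% of all, and the Insig1 match lay in the transcribed part that is not printed. Of the 21 enzyme genes of the pathway, 16 had matched promoters. Of their 19 promoters, which include the 3 of Dhcr7, 15 held CCAAT, 16 held GGGCGG and 2 held CACNCCAC. The motifs do not overlap one another in the printed stretches, a match is not evidence of binding, and the absence of one says only that these letters are not in the window.

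Levels of 6 of the 7 genes were lower in iRGCs than in cRGCs, by 1.46-fold for Srebf2 up to 2.06-fold for Fdft1, and in each of the 6 the highest iRGC library stayed below the lowest cRGC library. Insig1 was the exception, with overlapping populations. The call was an adjusted p-value under 0.1 in edgeR's quasi-likelihood test, with Benjamini-Hochberg adjustment over all 15941 genes tested, 2-sided, and by that rule 46.4% of all genes were called, with 23.1% of all genes lower in iRGCs and 23.3% higher. Libraries of the populations did not overlap in 55.3% of all genes, so neither a call nor a lack of overlap sets 1 gene apart, and what describes the group is that 6 of 7 lay on the same side. The median log2 fold change (iRGC over cRGC) of the 7 genes was -0.76 and that of all tested genes -0.00.

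Hmgcs1 was at 841, 849 and 1054 CPM (counts scaled to library size, with factors by the trimmed mean of M values, TMM) in the iRGC libraries 1 to 3 and at 1564, 1812 and 2029 CPM in the cRGC libraries 1 to 3. Every cRGC library was far above every iRGC library. The log2 fold change was -0.98 (SE 0.14), with population means (± SD, n = 3) of 915 ± 121 for iRGCs against 1802 ± 232 for cRGCs and an adjusted p of 6.84e-04 in edgeR. At the squalene step, Fdft1 measured 83.7, 84.97 and 106 CPM in iRGCs and 179, 173 and 216 CPM in cRGCs. The 2 lower iRGC libraries were nearly equal, and the gap between the populations was wider than the spread within either. Its log2 fold change of -1.04 (SE 0.14) was the lowest of the 7 genes (edgeR adjusted p = 5.34e-04).

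Sqle, 1 step further on, gave 217, 227 and 268 CPM in iRGCs and 340, 378 and 447 CPM in cRGCs. Again no iRGC library reached the lowest cRGC library, and the log2 fold change was -0.71 (SE 0.13, edgeR adjusted p = 0.00298). For Cyp51, which acts early in the trimming of lanosterol, 213, 224 and 332 CPM were counted in iRGCs and 388, 443 and 471 CPM in cRGCs. Replicate 3 of the iRGCs stood well above the other two and came nearest to the cRGC range without entering it. The log2 fold change was -0.76 (SE 0.17, edgeR adjusted p = 0.00791). Dhcr7, whose loss causes Smith-Lemli-Opitz syndrome in humans, was counted at 60.5, 71.3 and 85.5 CPM in iRGCs and 108, 124 and 145 CPM in cRGCs. Its populations were also separate, at a log2 fold change of -0.80 (SE 0.16, edgeR adjusted p = 0.00399).

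**Figure D1:**
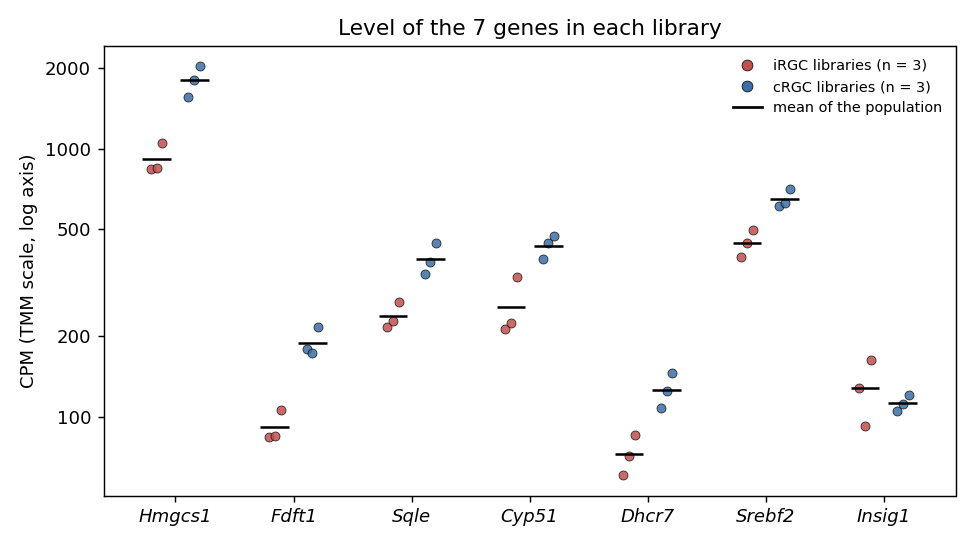
Level of each of the 7 genes in CPM on a log axis, with 1 point per library (3 iRGC, 3 cRGC, replicates 1 to 3 from left to right) and a line at the mean of each population. For 6 genes all iRGC points lie below all cRGC points, whereas the Insig1 points of the populations overlap.

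Of the control genes, Srebf2 was at 396, 445 and 496 CPM in iRGCs and at 614, 630 and 706 CPM in cRGCs. The activator's own transcript therefore lay on the same side as the enzymes, without overlap, but with the smallest difference of the 6, a log2 fold change of -0.54 (SE 0.12, edgeR adjusted p = 0.00563). Insig1 was at 128, 92.6 and 163 CPM in iRGCs and at 105, 111 and 121 CPM in cRGCs. The 3 cRGC values were close together and fell inside the wide range of the iRGC libraries, whose lowest was replicate 2 and whose highest was replicate 3. Its log2 fold change was 0.19 (SE 0.19), with a 95% confidence interval from -0.24 to 0.61 and an adjusted p of 0.477 in edgeR. No difference was thus called, and a difference in either direction within that interval is compatible with the values. That interval lies wholly above the intervals of Hmgcs1 (-1.29 to -0.67), Fdft1 (-1.36 to -0.73), Sqle (-1.01 to -0.40), Dhcr7 (-1.16 to -0.43), Cyp51 (-1.16 to -0.36) and Srebf2 (-0.81 to -0.28). Without iRGC replicate 2 the Insig1 value was 0.37 and passed the threshold (adjusted p = 0.0918 in edgeR), and without iRGC replicate 3 it turned to -0.04 (adjusted p = 0.882).

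To set genes against one another, levels were taken per kilobase of exon. The length was that of the merged exons of all annotated transcripts, bases shared with other genes included, so rankings depend on the annotation. Hmgcs1 led in both populations, at 199 ± 26.3 CPM per kilobase in iRGCs and 392 ± 50.6 in cRGCs (SD, n = 3). No library of the next gene reached it. In cRGCs the order below it was Cyp51 (98.3 ± 9.64), Srebf2 (90.5 ± 6.85), Sqle (69.99 ± 9.78), Fdft1 (44.7 ± 5.48), Insig1 (36.4 ± 2.501) and Dhcr7 (21.6 ± 3.21), and among these neighbours only Cyp51 and Srebf2 overlapped between libraries. In iRGCs the order was Srebf2 (62.0 ± 6.97), Cyp51 (58.0 ± 14.9), Sqle (42.8 ± 4.92), Insig1 (41.4 ± 11.4), Fdft1 (21.7 ± 3.02) and Dhcr7 (12.5 ± 2.15), where Srebf2 overlapped with Cyp51, Cyp51 with Sqle and Sqle with Insig1. On these lengths Insig1 stood above Fdft1 in iRGCs and below it in cRGCs, in each case without overlap. For Fdft1, 18.3% of the exonic bases are shared with Ctsb, and reads there may have been counted for neither gene. The level of Fdft1 per kilobase may therefore be too low. Its order and its lack of overlap with its neighbours depend on the length used, and other lengths were not tested.

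The 7 genes shared the position of replicate 3. All 7 were highest in replicate 3 of the iRGCs and in replicate 3 of the cRGCs, which held for 13.6% of all tested genes, and 5 of the 7 were lowest in replicate 1 of both, against 16.6% of all. Replicate 3 of the iRGCs also had the smallest share of uniquely aligned reads outside genes (12.3%, against 18.4% to 23.3% in the other libraries), and the part of this in the levels was not tested. Over the 6 libraries, the log2 level of each of the 6 lower genes followed the mean profile of the group with Pearson's r between 0.980 and 0.991, and Insig1 with 0.047. These values describe 6 points that share the split into populations, and each gene is part of the mean it is compared with. Outside the group and among 10268 genes with a mean of at least 10 CPM, the profiles most like it were those of Lin7c (r = 0.999), Atxn7l3b (0.997), Glyr1 (0.997), Ttc39c (0.996) and Dnajb14 (0.995), and 735 genes, 7.16%, had an r above 0.95. The closest, Lin7c, was at 247, 245 and 279 CPM in iRGCs and 306, 315 and 335 CPM in cRGCs, which gave a log2 fold change of -0.31, so its profile had the same shape with a smaller difference.

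The remaining enzymes of the pathway were read from 2 lists, 8 genes from acetyl-CoA to farnesyl pyrophosphate and 13 from squalene to cholesterol, which include Hmgcs1, Fdft1, Sqle, Cyp51 and Dhcr7. Of the 21, 17 were lower in iRGCs, 1 was higher and 3 were not called, with a median log2 fold change of -0.76. The shares over all tested genes were 23.1% lower and 23.3% higher. Leaving the group's own enzymes aside, 12 of the other 16 were lower, 1 was higher and 3 were not called, at a median of -0.54. In the mevalonate part 7 of 8 genes were lower. Acat2 (acetoacetyl-CoA thiolase) was lower at -0.98, Mvk (mevalonate kinase) at -0.93, Pmvk (phosphomevalonate kinase) at -0.82, Mvd (the decarboxylase that yields isopentenyl pyrophosphate) at -0.79 and Fdps (farnesyl pyrophosphate synthase) at -0.87 on the log2 scale. Fdps was counted at 10.4 to 29.8 CPM only, shares 26.7% of its exonic bases with Gm43738 and was not called without cRGC replicate 2 (adjusted p = 0.117) or cRGC replicate 3 (adjusted p = 0.109) in edgeR. Idi1 (isopentenyl pyrophosphate isomerase) was at no more than 6.53 CPM in any library, with a log2 fold change of -0.00 and a 95% confidence interval from -0.84 to 0.83.

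Of the sterol steps 10 of 13 genes were lower, beside 23.1% of all genes. Lss (lanosterol synthase) had a log2 fold change of -0.92, Nsdhl and Hsd17b7, which act together in the removal of methyl groups at carbon 4, -0.54 and -0.53 and Sc5d (lathosterol oxidase) -0.52. Hsd17b7 was not called without cRGC replicate 3 (adjusted p = 0.103 in edgeR). Msmo1 (the methylsterol oxidase of the same demethylation) was not called at -0.06, with a 95% confidence interval from -0.43 to 0.31, nor was Ebp (the sterol isomerase) at -0.20, from -0.60 to 0.20. The reduction of the carbon 14 double bond can be carried out by either of a pair of proteins, and these lay on opposite sides. Tm7sf2 was at 18.4, 21.9 and 24.1 CPM in iRGCs and at 46.7, 42.3 and 55.5 CPM in cRGCs, which gave a log2 fold change of -1.16 (SE 0.17, edgeR adjusted p = 7.57e-04). Lbr, the lamin B receptor of the inner nuclear membrane, was at 196, 176 and 164 CPM in iRGCs and at 35.8, 59.2 and 42.2 CPM in cRGCs, which gave a log2 fold change of 1.97 (SE 0.19, edgeR adjusted p = 2.07e-04). Per kilobase of exon, Lbr was above Tm7sf2 in iRGCs (37.6 ± 3.41 against 4.88 ± 0.649 CPM, SD, n = 3), whereas in cRGCs the pair measured 9.61 ± 2.53 and 10.9 ± 1.53, which is within their spread.

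**Figure D2:**
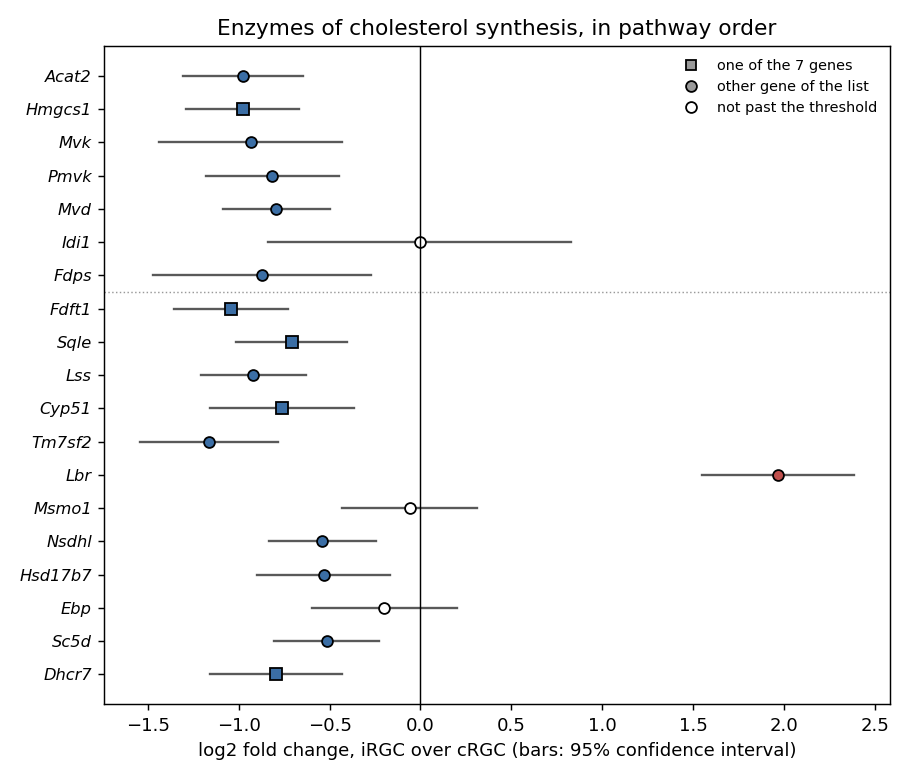
Log2 fold change (iRGC over cRGC) of 19 of the 21 enzyme genes in pathway order, from acetyl-CoA at the top, with 95% confidence intervals. Squares are genes of the group of 7, open symbols did not pass the threshold, and a dotted line separates the mevalonate part from the squalene and sterol part. Points of 15 genes lie left of 0 with intervals that do not reach it, Lbr alone lies to the right at 1.97, and Idi1, Msmo1 and Ebp span 0.

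Of 9 genes that control SREBP processing, 3 were higher in iRGCs, 2 were lower and 4 were not called, with a median log2 fold change of 0.14, and these counts are near the shares of all genes (23.3% higher, 23.1% lower). Srebf1, which encodes SREBP-1, the relative that chiefly drives fatty acid synthesis, was at 128, 102 and 131 CPM in iRGCs and at 53.7, 62.8 and 77.0 CPM in cRGCs. It was higher in every iRGC library, opposite to Srebf2, at a log2 fold change of 0.90 (SE 0.16, edgeR adjusted p = 0.00221). Taken within each library and per kilobase, Srebf2 was 2.43, 3.42 and 2.97 times Srebf1 in iRGCs and 8.97, 7.86 and 7.19 times in cRGCs. The ratios did not overlap, and the exact permutation test, 2-sided, gave p = 0.1 (adjusted over the 2 ratios tested, 0.2), which is the smallest value that 3 libraries against 3 allow.

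Insig2, the relative of Insig1 whose expression does not require SREBPs, was at 20.7, 26.1 and 28.4 CPM in iRGCs and at 37.3, 33.1 and 33.7 CPM in cRGCs. Its populations were separate by a narrow gap, with a log2 fold change of -0.47 (SE 0.16, edgeR adjusted p = 0.0490), and the call was lost without iRGC replicate 1 (adjusted p = 0.111), cRGC replicate 1 (0.126) or cRGC replicate 3 (0.1005). The ratio of Insig1 to Insig2 per kilobase was 6.96, 3.99 and 6.45 in iRGCs and 3.17, 3.78 and 4.02 in cRGCs. The iRGC replicate 2 fell within the cRGC range, and the exact permutation test, 2-sided, gave p = 0.2 (adjusted 0.2). Mbtps1, the Golgi protease that makes the first cut in SREBPs, was higher in iRGCs at 0.62 on the log2 scale, as was Rnf139, a ubiquitin ligase of the endoplasmic reticulum, at 0.74. Scap, the escort protein, was not called at -0.06, nor was the protease gene Mbtps2 at 0.14. Of the exonic bases, 26.2% of Rnf139 are shared with Gm49356 and Tatdn1 and 28.4% of Mbtps2 with Yy2.

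**Figure D3:**
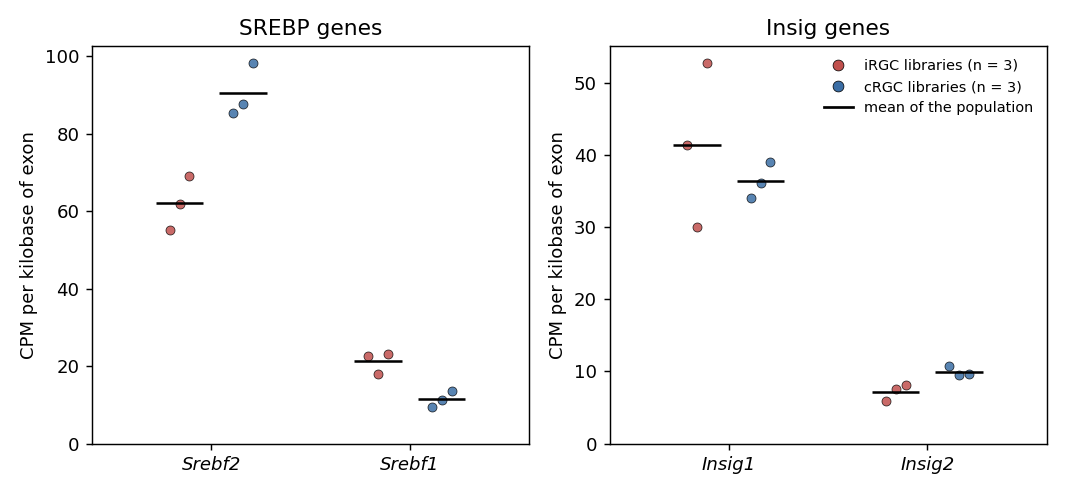
Levels of Srebf2 and Srebf1 (left) and of Insig1 and Insig2 (right) in CPM per kilobase of exon, with 1 point per library and a line at each population mean. Srebf2 is lower and Srebf1 higher in all 3 iRGC libraries, the Insig1 points overlap, and Insig2 is lower in iRGCs by a narrow gap.

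Uptake was read from 13 genes of lipoprotein receptors and lysosomal release, of which 3 were higher in iRGCs, 4 were lower and 6 were not called (median log2 fold change 0.13). These counts are near the shares of all genes (23.3% higher, 23.1% lower), and scaled by library totals alone they were 6 higher and 2 lower. Among the receptors for apolipoprotein E, Lrp1 was lower in iRGCs at -0.85 and Lrp8 at -0.48, whereas Vldlr at -0.33 was not called (edgeR adjusted p = 0.213). Vldlr passed in edgeR without iRGC replicate 3 (-0.53, adjusted p = 0.0502) and with a block by replicate number (-0.33, adjusted p = 0.0474). Scarb1, the HDL receptor, was higher at 1.86, with 84.7, 55.0 and 91.2 CPM in iRGCs and 21.7, 28.6 and 13.4 CPM in cRGCs. Stard4, a sterol carrier, was higher as well at 0.75. Npc1, which exports cholesterol from lysosomes, was lower at -0.41 (not called when scaled by library totals alone, -0.21, adjusted p = 0.151 in edgeR) and Mylip, a ubiquitin ligase for lipoprotein receptors, at -0.58. The call of Mylip, with no more than 17.9 CPM in any library, was lost in each of 5 of the 6 refits without 1 library.

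Genes of efflux, storage and turnover went mostly the other way from the group of 7. Of the 9 tested, 6 were higher in iRGCs, 1 was lower and 2 were not called (median log2 fold change 0.69). The shares of all genes were 23.3% higher and 23.1% lower. Ch25h, the remaining gene listed, had no count in any library and was not tested, which does not show that it was absent. Cyp46a1, the hydroxylase by which neurons turn cholesterol over, was at 34.7, 38.0 and 29.2 CPM in iRGCs and at 5.42, 11.3 and 4.36 CPM in cRGCs. Apoe, the lipid carrier of the brain, was at 41.7, 59.6 and 43.2 CPM in iRGCs and at 8.65, 13.8 and 8.49 CPM in cRGCs. Both were several-fold higher in every iRGC library, at log2 fold changes of 2.28 and 2.22. The sterol exporters Abca1 (2.14) and Abcg1 (0.47) were higher too, and Abca1 was uneven among the iRGC libraries, with 21.5 CPM in replicate 2 against 7.43 and 4.41 in the others. Abcg4, an exporter of neurons, was lower at -1.30. Without iRGC replicate 2, and equally without cRGC replicate 1, the counts were 4 higher and 1 lower.

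Fatty acid synthesis, the branch credited chiefly to SREBP-1, lay on the side of the 7 genes and not on that of Srebf1. Of its 11 genes 10 were lower in iRGCs, 0 were higher and 1 was not called in edgeR, with a median log2 fold change of -0.66. Among all genes 23.1% were lower and 23.3% higher. Scd1, the stearoyl-CoA desaturase, was at 22.8, 19.2 and 24.1 CPM in iRGCs and at 58.8, 54.9 and 85.5 CPM in cRGCs. That difference of -1.59 on the log2 scale (SE 0.19, edgeR adjusted p = 3.89e-04) was larger in size than the value of any of the 7 genes, a comparison that was not tested. Me1 (malic enzyme) followed at -1.49. Refits without 1 library gave 7 to 10 of the 11 lower, with 7 in each of 4 refits, among them that without iRGC replicate 2, and 1 (Elovl5, named after its values were seen) higher without cRGC replicate 3. Scaled by library totals alone, 6 were lower and 1, again Elovl5, was higher. Of 9 genes on other branches from farnesyl pyrophosphate, such as protein prenylation, ubiquinone and dolichol, 3 were lower (Pdss1 at -0.63, Ggps1 at -0.40 and Fnta at -0.37), 0 were higher in edgeR and 6 were not called, with a median of 0.11, beside 23.1% of all genes lower and 23.3% higher. The call of Ggps1 was lost in 4 of the 6 refits without 1 library (adjusted p from 0.102 to 0.182 in edgeR). Scaled by library totals alone, none of these 3 was called and 3 other genes of the list, Pggt1b, Dhdds and Nus1, were called higher.

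The makeup of the libraries differed along with the 7 genes. In bulk RNA of sorted cells, fewer cells of a type and less RNA per cell cannot be told apart. The marker counts below stand beside 23.1% of all genes lower in iRGCs and 23.3% higher. Of 13 markers of RGCs, 12 were lower in iRGCs, at a median log2 fold change of -1.94, and their summed level was 2892, 4115 and 6005 CPM in iRGC libraries 1 to 3 against 15386, 14160 and 17243 CPM in cRGC libraries 1 to 3. Tubb3, the one with the highest CPM, ranged from 607 to 1089 CPM in iRGCs, so ganglion cell markers were present in both populations. The RGC list includes Pou4f1 (-2.28) and Sncg (-1.94), which the paper describes as specific to or selective for cRGCs. It also includes Pou4f2 (-1.15), the driver gene of the cRGC sort. For these genes a lower level in iRGCs does not measure the content of ganglion cells, and the count and sums include them. Of 16 markers of retinal progenitors, which divide and have not yet become neurons, 15 were higher in iRGCs at a median of 2.43, with sums of 10839, 9675 and 8573 CPM against 1836, 3084 and 2445 CPM and with Ccnd1 the highest in CPM. The 7 genes summed to 1940, 1993 and 2506 CPM in iRGCs and 3298, 3671 and 4134 CPM in cRGCs. In iRGCs, the library with the most RGC marker signal and the least progenitor signal, replicate 3, was also the one with the highest sum of the 7 genes, and in cRGCs the library with the most RGC marker signal, replicate 3, likewise had the highest sum, whereas the one with the least progenitor signal, replicate 1, had the lowest. The part of these markers in the levels of the 7 genes was not tested.

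**Figure D4:**
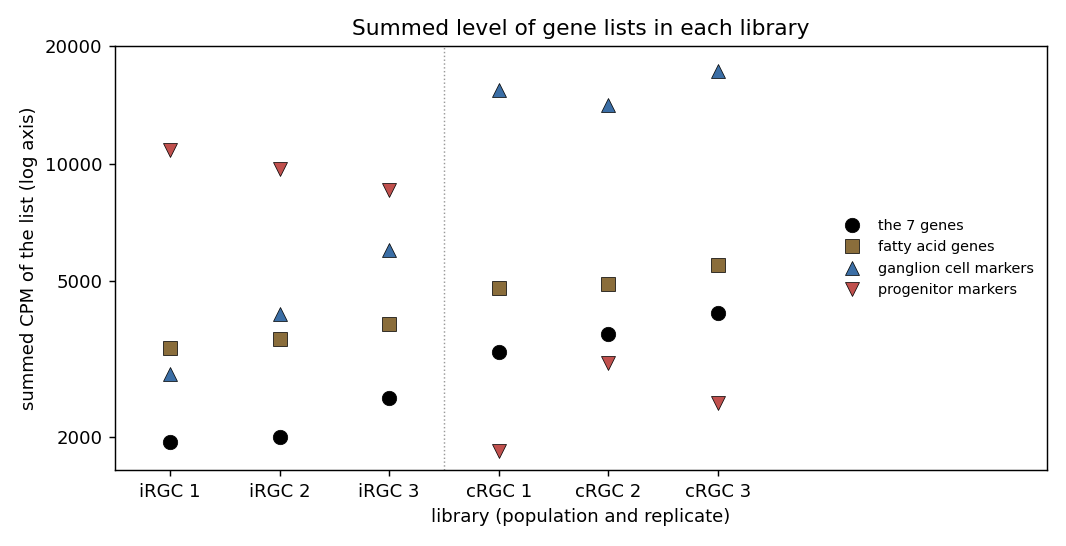
Summed CPM of 4 gene lists in each of the 6 libraries, on a log axis, iRGC libraries left and cRGC libraries right of the dotted line. The 7 genes and the 11 fatty acid genes are lower in all 3 iRGC libraries than in any cRGC library, as are the RGC markers, whose gap is wider, and the progenitor markers lie the other way. The RGC markers include genes described as selective for cRGCs (Pou4f1, Sncg) and the driver gene of the cRGC sort (Pou4f2).

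Replicate 2 of the iRGCs stood apart by markers of vessels and blood. Markers of mural cells summed to 157 CPM there (Rgs5 at 93.8), against 19.2 and 23.7 CPM in the other iRGC libraries and at most 4.45 CPM in cRGCs. Markers of erythroid cells summed to 92.7 CPM (Hbb-bs at 50.04), against 12.2 and 15.2 CPM in iRGCs and at most 5.11 CPM in cRGCs. The endothelial sum was 467, 680 and 436 CPM in iRGCs and 89.2, 109 and 72.0 CPM in cRGCs, of which Kdr made up 366, 320 and 418 CPM in iRGCs, while the defining marker Cdh5 was at 15.2, 81.3 and 0.158 CPM in iRGCs and at 0 in all 3 cRGC libraries. Microglial markers summed to 13.1, 21.2 and 15.8 CPM in iRGCs, with Csf1r the highest in CPM, and to at most 4.18 CPM in cRGCs. Astrocyte markers summed to 150 to 207 CPM in iRGCs and 27.6 to 48.0 CPM in cRGCs. Slc1a3 made up most of each sum, at 202, 147 and 175 CPM in iRGCs and 19.2, 41.0 and 23.7 CPM in cRGCs. Gfap, Pax2, S100b and Aqp4 were at no more than 0.865 CPM in any library. The 2 markers tested lay on opposite sides, Slc1a3 higher in iRGCs at 2.64 on the log2 scale and Aldh1l1 lower at -1.09. Without iRGC replicate 2 the 6 lower genes of the group were still lower and called, Insig1 passed the threshold on the higher side as given above, and 17 enzymes were lower and 1 higher.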

How the data were processed

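RNA-seq counts of 3 iRGC and 3 cRGC libraries were used, and the 13 ATAC-seq samples were not analysed here. The authors mapped reads to mm10 with HISAT2 2.1.0, counted them on Ensembl genes of GRCm38 with HTSeq 0.11.1 and deposited raw counts per gene. Whether counting used strand is not given in the sources used here. Tallies that name no gene (reads outside genes, 12.3% to 23.3% of uniquely aligned reads) stayed out of library sizes. Symbols, positions and exon lengths came from GENCODE M21 (46574 of 47069 genes matched).

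Populations were compared with edgeR 4.0.16 under R 4.3.3 (filterByExpr, TMM, quasi-likelihood test, no block, Benjamini-Hochberg over 15941 genes). SEs are the absolute log2 fold change over the square root of F. Alternatives were DESeq2 1.42.0, limma 3.58.1 voom, other scalings, filters and thresholds, each library left out, and a replicate block. The same-numbered libraries of the populations did not deviate together (correlations -0.01, -0.01 and -0.05), so the numbers were not taken as pairs. Replicates differed beyond counting noise.

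The 7 genes, the lists and the tests were chosen with earlier results of these data known. The rule named all genes of the group, the enzyme and SREBP lists, the main receptors and transporters, and the 2 called genes per direction with the largest difference in other lists. Stard4, Npc1, Fnta, Pggt1b, Dhdds, Nus1 and markers were named after their values were seen. Single values of some listed genes are not reported here, though the counts of their lists include them.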

Additional observations from a re-analysis of the deposited data

How the results depend on the processing

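The lower levels of Hmgcs1, Fdft1, Sqle, Cyp51, Dhcr7 and Srebf2 in iRGCs kept their direction and their side of the threshold in all 15 alternatives run for each, which include each library left out. Requiring an absolute log2 fold change above 1 besides the adjusted p-value left 3688 of the 7395 genes called, 1 of the 7 genes (Fdft1) and 3 of the 21 enzymes. Leaving out 1 library at a time gave 6303 to 7603 genes, 6 to 7 of the group and 16 to 18 enzymes. Insig1 turned to -0.0367 without iRGC replicate 3 and ranged to 0.374 without iRGC replicate 2 in these refits, where it was called. With the replicate block 6751 genes, 6 of the 7 genes and 18 enzymes were called, and the log2 fold change of Insig1 was 0.152. Of the listed genes other than markers, Vldlr then passed while Mylip, Nr1h3 and Acss2 did not. Endothelial markers called went from 7 to 5 and mural markers from 2 to 3.

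Scaling by library totals alone moved the median log2 fold change of all genes by 0.204 and the split of calls from 3707 higher and 3688 lower to 5100 higher and 2842 lower. The 6 lower genes of the group were still called lower. Among other genes named, Idi1, Msmo1, Ebp and Scap, none of them called, turned to the higher side, Mbtps2 passed the threshold (0.35, adjusted p = 0.0710 in edgeR), and Hsd17b7, Insig2, Mylip, Npc1, Pdss1, Ggps1 and Fnta were no longer called. Of the list counts, the uptake list then had 6 higher and 2 lower, the fatty acid list 1 higher and 6 lower, and the other isoprenoid branches 3 higher and 0 lower in edgeR. With 3 libraries per population and a biological coefficient of variation of 36.3%, small differences of genes with few counts, such as Idi1, were not detectable.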
